A study of Rattus norvegicus with 12 samples.

Results

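The 157 probes described here had a lower signal in microglia given alpha-synuclein medium than in microglia given control medium at 6 h, and a higher signal at 24 h. They were chosen from 22523 probes of an Illumina rat bead array by a rule on the measured values themselves: the mean log2 signal in alpha-synuclein medium had to lie at least 0.5 below that in control medium at 6 h and at least 0.5 above it at 24 h, after quantile normalization of the 12 arrays. The groups were primary rat microglia kept in aSCM for 6 h, in LZCM for 6 h, in aSCM for 24 h and in LZCM for 24 h, with 3 arrays in each. aSCM is culture medium collected from SH-SY5Y cells, a line from a human neuroblastoma, that had been differentiated and carried an adenoviral vector for human alpha-synuclein, and LZCM is the same kind of medium from cells that carried a vector for beta-galactosidase (LacZ). For both media a multiplicity of infection of 100 was used on the SH-SY5Y cells, the medium, which held no serum, stayed on them for 18 h, and the microglia received it as a 5-fold concentrate, so both groups were exposed to medium from virus-infected neuronal cells and neither group shows microglia in fresh medium. The origin of the 3 arrays of each group (culture, animal or batch of medium) is not stated in the labels, so all errors below measure the spread between arrays, which may be technical.

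Microglia are the resident macrophages of the brain. They recognise microbial products and released proteins through Toll-like receptors, which signal through the adaptors MyD88 and TRIF to the transcription factor NF-kB, and they can tune that response by changing the amounts of receptors, of inhibitory phosphatases and of effector enzymes such as the phagocyte NADPH oxidase. Complement receptors, Fc receptors and lipid mediators made from arachidonic acid are further inputs and outputs of the same cells.

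Of the 157 probes, 129 carried 1 gene symbol in the platform annotation, for 126 different genes, and 28 carried none. Pon2, Fxyd2 and Nipsnap3b were each represented by 2 of the 157 probes. All 157 passed the filter on dim probes, under which 3 arrays or more had to show a signal above background, and 146 of them did so on all 12. Just inside the thresholds lay ILMN_1650254 with -0.50 at 6 h and 0.53 at 24 h, ILMN_1362050 with -0.50 at 6 h and 0.94 at 24 h, both without a symbol, and Cib1, which encodes a calcium-binding protein, with -0.50 at 6 h and 0.80 at 24 h. The nearest outside was Acp2, which encodes lysosomal acid phosphatase, with -0.96 at 6 h and 0.498 at 24 h. Within groups, the median SD over the 157 probes was 0.08 on the log2 scale.

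For 3 of the genes with the largest reversal, and for the oxidase gene Cybb, the region around the transcription start is given as context for genes that were chosen for the same pattern over time. The sequences are RefSeq promoter windows of the GRCr8 assembly, 250 bases before to 50 bases after the annotated start, 5′ to 3′ on the gene's strand. Capitals mark matches, on either strand, to any of 7 motifs: GAGGAA (the core bound by PU.1, the macrophage lineage factor), TGANTCA (AP-1), CACGTG (E-box), CCAAT (the box bound by NF-Y), GGGCGG (GC box), the interferon-stimulated response element, written here as a pair of GAAA with any 2 bases between them, and the NF-kB consensus.
C3ar1 (chr4:157756481-157756780, minus strand): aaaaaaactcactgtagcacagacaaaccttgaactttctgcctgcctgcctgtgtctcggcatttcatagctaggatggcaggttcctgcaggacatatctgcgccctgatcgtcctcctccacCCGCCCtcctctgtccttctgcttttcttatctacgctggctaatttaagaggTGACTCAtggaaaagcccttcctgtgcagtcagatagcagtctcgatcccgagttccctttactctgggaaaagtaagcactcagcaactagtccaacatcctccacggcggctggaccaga
Ptpn6 (chr4:159237020-159237319, minus strand): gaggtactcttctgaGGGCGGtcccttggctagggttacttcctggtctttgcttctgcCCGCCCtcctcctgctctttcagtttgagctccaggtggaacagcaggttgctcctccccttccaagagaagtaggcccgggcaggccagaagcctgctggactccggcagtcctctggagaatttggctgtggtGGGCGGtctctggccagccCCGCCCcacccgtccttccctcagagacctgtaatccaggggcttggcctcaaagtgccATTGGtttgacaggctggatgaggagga
Lta4h (chr7:29856621-29856920, plus strand): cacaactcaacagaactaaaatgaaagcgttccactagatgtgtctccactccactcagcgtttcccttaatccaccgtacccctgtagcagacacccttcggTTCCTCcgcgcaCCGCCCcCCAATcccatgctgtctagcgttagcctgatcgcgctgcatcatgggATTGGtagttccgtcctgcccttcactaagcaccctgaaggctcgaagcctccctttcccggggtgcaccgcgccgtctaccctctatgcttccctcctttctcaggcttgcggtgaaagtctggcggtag
Cybb (chrX:16065016-16065315, minus strand): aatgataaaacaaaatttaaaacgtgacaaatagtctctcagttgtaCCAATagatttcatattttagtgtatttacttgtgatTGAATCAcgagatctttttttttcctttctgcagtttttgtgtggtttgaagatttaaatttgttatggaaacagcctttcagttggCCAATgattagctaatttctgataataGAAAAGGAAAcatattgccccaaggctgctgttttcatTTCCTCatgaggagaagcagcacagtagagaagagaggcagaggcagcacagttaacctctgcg

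The C3ar1 window holds a TGACTCA whose first base lies at -72 from the start, by the strand of the gene. In the Cybb window TGAATCA starts at -166. Further on, at -52, lies GAAAAGGAAA. Promoter windows were found for 108 of the 126 genes (111 windows) and for 7421 genes with a tested probe (7781 windows). TGANTCA was present in 10.8% of the windows of the reversing genes and in 5.46% of all windows, the interferon-stimulated response element in 6.31% and 2.96%, GAGGAA in 35.1% and 26.8%, and GGGCGG in 66.7% and 59.9%. CACGTG was present in 9.01% of the windows of the reversing genes and in 9.07% of all, CCAAT in 34.2% and 37.4%, and the NF-kB consensus in 4.5% and 5.09%. These shares are descriptions, with no test, and the motifs were picked after the genes were known.

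Differences between media are given below as aSCM minus LZCM in log2 signal. They are the values that chose the probes, so no test is attached to them. A fall or rise at 6 h or at 24 h means a lower or higher signal in aSCM than in LZCM at that time. Changes from 6 h to 24 h are named as changes over time. The RNA came from whole cultures, in which fewer cells of a type and less RNA per cell cannot be told apart. At 6 h the differences ran from -3.35 to -0.50 with a median of -0.78, a median fold of 1.72 lower in aSCM, and at 24 h from 0.50 to 2.68 with a median of 0.76, a median fold of 1.69 higher. At least 2-fold differences were reached by 39 probes at 6 h, by 43 at 24 h and by 14 at both times. In each of the 157 probes all 3 aSCM arrays lay below all 3 LZCM arrays at 6 h, and all 3 lay above them at 24 h. The rule's gap of 0.5 between group means, against a median SD within groups of 0.08, largely set that pattern for the 157. Among the 13003 tested probes that pattern was met by 33.0% at 6 h and by 32.4% at 24 h, and the rule's own thresholds were passed by 14.7% at 6 h and by 11.7% at 24 h.

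**Figure D1:**
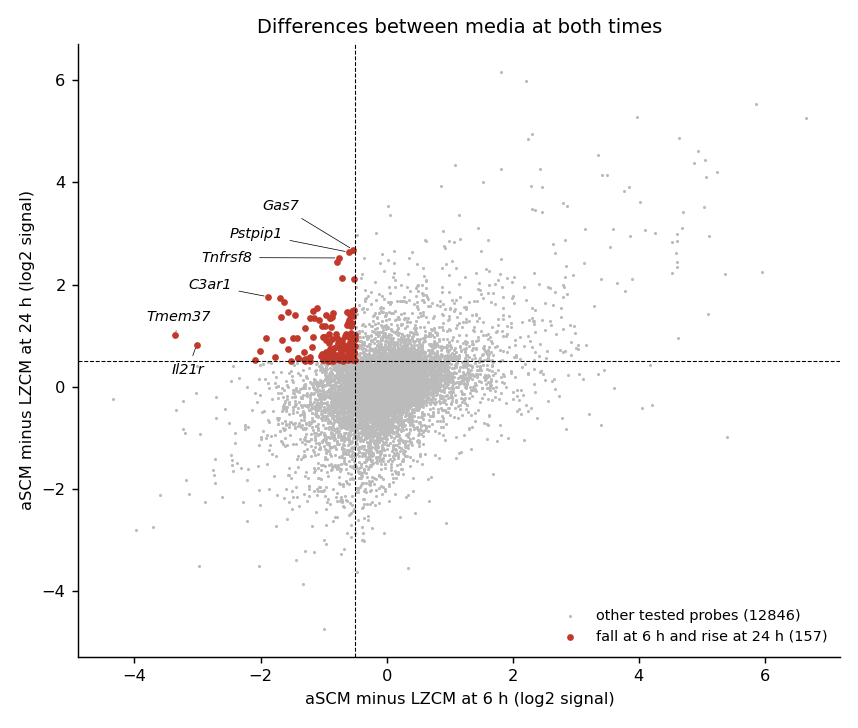
Each point is 1 of 13003 tested probes, with the difference aSCM minus LZCM at 6 h on the horizontal axis and at 24 h on the vertical axis (both log2 signal, means of 3 arrays). Dashed lines mark -0.5 and 0.5. The 157 selected probes (red) fill the upper left corner, from Tmem37 with the lowest value at 6 h to Gas7 with the highest at 24 h.

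Among receptors, C3ar1, which encodes the receptor for the complement fragment C3a, had the largest reversal when genes are ranked by the smaller of the differences at the 2 times. Its log2 signal was 7.99, 7.90 and 8.0 in the aSCM arrays at 6 h, against 9.72, 9.91 and 9.92 in the LZCM arrays. The 24 h signal was 10.71, 10.83 and 10.74 in the aSCM arrays, against 9.02, 9.04 and 8.95 in the LZCM arrays. C3ar1 was thus 3.7-fold lower in aSCM at 6 h and 3.39-fold higher at 24 h.

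Tlr4, the receptor for bacterial lipopolysaccharide, was 7.97, 7.93 and 8.07 in the aSCM arrays at 6 h, against 9.11, 9.29 and 9.24 in the LZCM arrays. At 24 h Tlr4 was 9.32, 9.30 and 9.33 in the aSCM arrays, against 8.76, 8.85 and 8.81 in the LZCM arrays, so its fall at 6 h (-1.22) was larger than its rise at 24 h (0.51). Ticam2, which encodes the adaptor TRAM that links TLR4 to TRIF, differed by -0.86 at 6 h and 0.93 at 24 h. Tlr2, which the title of the series names as the receptor for released alpha-synuclein, was not among the 157 probes: its probe differed by 1.03 at 6 h and 0.92 at 24 h.

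Fcgr1a, the high-affinity receptor for IgG, was 11.84, 11.64 and 11.97 in the aSCM arrays at 6 h, against 12.56, 12.28 and 12.51 in the LZCM arrays. The order was turned at the later time, with 12.75, 12.76 and 12.95 in the aSCM arrays at 24 h, against 11.45, 11.57 and 11.80 in the LZCM arrays. Its LZCM arrays differed more among themselves than those of C3ar1 or Tlr4. Mertk, a receptor tyrosine kinase used to engulf apoptotic cells, had 7.33 ± 0.06 in aSCM and 8.27 ± 0.04 in LZCM at 6 h, and 8.91 ± 0.05 in aSCM and 8.35 ± 0.10 in LZCM at 24 h (SD, n = 3).

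The other receptors and surface proteins varied in the balance between the early fall and the late rise. Il21r, the interleukin-21 receptor, fell most of all receptors at 6 h (8.07-fold lower in aSCM) and was 1.77-fold higher at 24 h. Tnfrsf8, which encodes CD30, showed the opposite balance, with differences of -0.76 at 6 h and 2.52 at 24 h. In aSCM at 6 h Il21r averaged 7.08 and Tnfrsf8 7.15, and Tnfrsf8 averaged 7.24 in LZCM at 24 h. These signals lay close to background, so the differences may be understated, though both probes were above it on all 12 arrays. Ptprc, the pan-leukocyte phosphatase CD45, differed by -0.64 at 6 h and 0.57 at 24 h, and Clec4a2, a C-type lectin receptor, by -0.91 at 6 h and 1.35 at 24 h. Icam2, an adhesion molecule, differed by -1.77 at 6 h and 0.58 at 24 h. Mrgprx3, a Mas-related G protein-coupled receptor, differed by -1.91 at 6 h and 0.95 at 24 h, and Sema4a, a semaphorin, by -1.17 at 6 h and 0.97 at 24 h. The 16 probes for receptors and surface proteins had median differences of -0.92 at 6 h and 0.87 at 24 h.

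Several genes for proteins that pass on or restrain signals from such receptors were among the largest reversals. Sla, which encodes a Src-like adaptor that dampens antigen receptor signalling in lymphocytes, was 7.62, 7.52 and 7.41 in the aSCM arrays at 6 h, against 9.13, 9.22 and 9.09 in the LZCM arrays. At 24 h Sla was 10.49, 10.63 and 10.34 in the aSCM arrays, against 8.69, 8.93 and 8.84 in the LZCM arrays. The 24 h aSCM arrays were the highest of the 12.

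Ptpn6, which encodes the inhibitory phosphatase SHP-1, was 11.73, 11.64 and 11.55 in the aSCM arrays at 6 h, against 13.01, 13.13 and 13.15 in the LZCM arrays. At 24 h it was 14.14, 13.95 and 14.06 in the aSCM arrays, against 12.75, 12.57 and 12.59 in the LZCM arrays. Ptpn6 was 2.75-fold lower in aSCM at 6 h and 2.66-fold higher at 24 h, and it was among the brighter of the 157 probes at both times.

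Btk, a cytoplasmic tyrosine kinase of B cells and myeloid cells, was 8.92, 8.83 and 8.96 in the aSCM arrays at 6 h, against 10.15, 10.10 and 10.34 in the LZCM arrays. Btk then reached 10.64, 10.96 and 10.72 in the aSCM arrays at 24 h, against 9.57, 9.64 and 9.67 in the LZCM arrays. Fes, another cytoplasmic tyrosine kinase of myeloid cells, differed by -1.65 at 6 h and 0.92 at 24 h, and Sh3kbp1, which encodes the endocytic adaptor CIN85, by -1.14 at 6 h and 1.34 at 24 h. Rassf2, which encodes a Ras-association domain protein, differed by -1.17 at 6 h and 1.48 at 24 h, and Adcy7, an adenylyl cyclase, by -0.99 at 6 h and 0.98 at 24 h.

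Casp1, the protease that activates interleukin-1 beta, was 11.64, 11.50 and 11.51 in the aSCM arrays at 6 h, against 12.62, 12.37 and 12.67 in the LZCM arrays. At 24 h Casp1 was 12.54, 12.59 and 12.57 in the aSCM arrays, against 12.02, 12.01 and 12.10 in the LZCM arrays, a rise that was smaller than the fall at 6 h. Mapk14, which encodes p38 alpha, differed by -0.93 at 6 h and 0.51 at 24 h. Shc1, an adaptor of growth factor receptors, differed by -0.59 at 6 h and 0.96 at 24 h, and S100a4, a calcium-binding protein, by -0.54 at 6 h and 1.48 at 24 h. The 20 probes for kinases, phosphatases, adaptors and other signalling proteins had median differences of -0.90 at 6 h and 0.92 at 24 h.

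**Figure D2:**
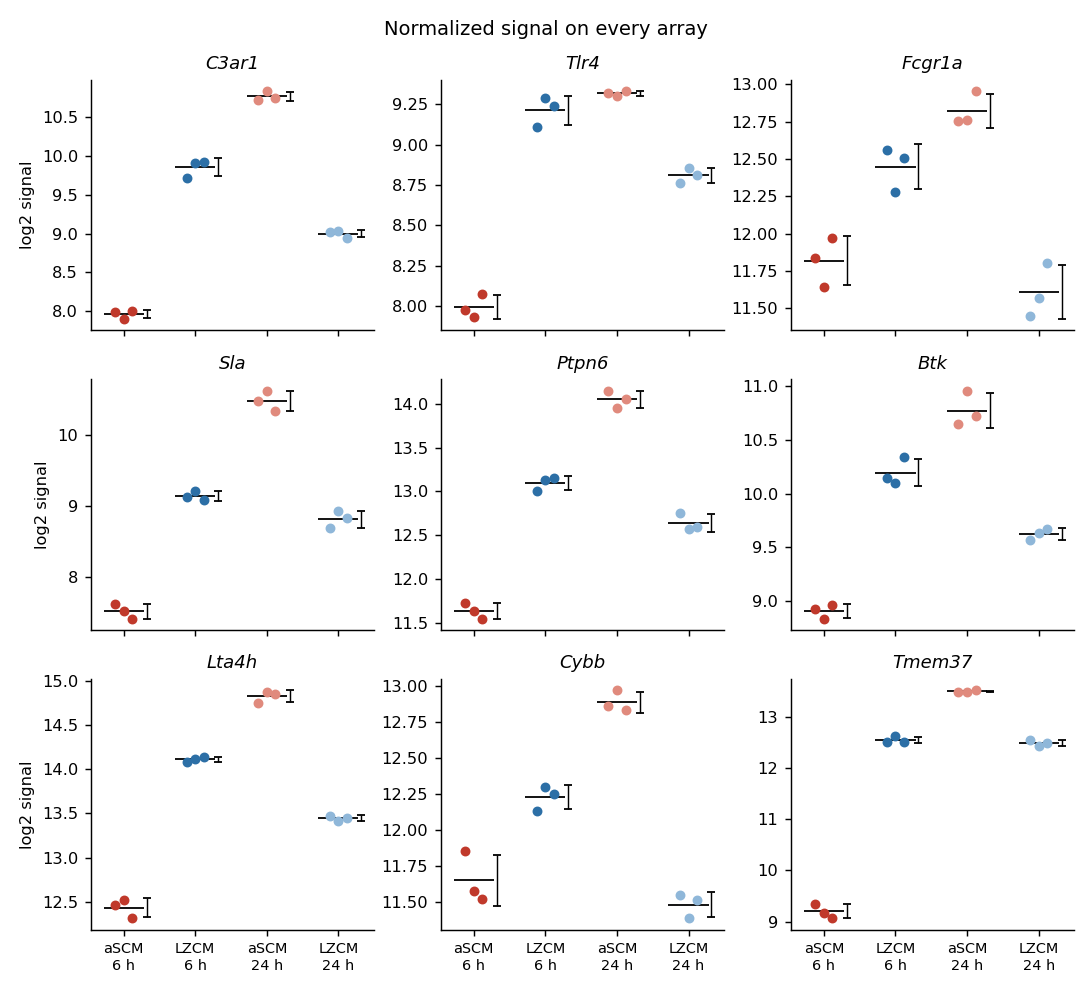
Normalized log2 signal of 9 genes on each of the 12 arrays, with points for arrays, a black line for the mean of 3 and a bar for 1 SD. Vertical axes differ between panels and do not start at 0. In each panel the aSCM arrays lie below the LZCM arrays at 6 h and above them at 24 h.

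Enzymes that make lipid mediators or reactive oxygen were also represented. Lta4h, which converts leukotriene A4 to the chemoattractant leukotriene B4, was 12.47, 12.53 and 12.32 in the aSCM arrays at 6 h, against 14.08, 14.12 and 14.14 in the LZCM arrays. At 24 h Lta4h was 14.75, 14.87 and 14.85 in the aSCM arrays, against 13.47, 13.42 and 13.45 in the LZCM arrays, so it was 3.19-fold lower and then 2.59-fold higher in aSCM. Pla2g4a, the cytosolic phospholipase A2 that releases arachidonic acid, was 10.33, 10.14 and 10.71 in the aSCM arrays at 6 h, against 11.32, 11.32 and 11.42 in the LZCM arrays. At 24 h it was 12.06, 12.02 and 12.11 in the aSCM arrays, against 10.66, 10.66 and 10.67 in the LZCM arrays. Alox12, a 12-lipoxygenase, differed by -0.62 at 6 h and 0.57 at 24 h.

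Cybb, the catalytic subunit of the phagocyte NADPH oxidase, was 11.85, 11.58 and 11.52 in the aSCM arrays at 6 h, against 12.13, 12.30 and 12.25 in the LZCM arrays. At 24 h Cybb was 12.86, 12.97 and 12.83 in the aSCM arrays, against 11.55, 11.39 and 11.52 in the LZCM arrays. Ncf1, which encodes the oxidase's cytosolic organiser p47phox, was 14.18, 14.10 and 14.04 in the aSCM arrays at 6 h, against 15.09, 15.01 and 15.14 in the LZCM arrays. At 24 h Ncf1 was 14.93, 15.07 and 14.86 in the aSCM arrays, against 14.47, 14.30 and 14.35 in the LZCM arrays, and its signals lay close to the highest normalized signal of the array set, 15.73. Cybb thus had the larger difference at 24 h and Ncf1 the larger one at 6 h.

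Naaa, a lysosomal hydrolase of N-acylethanolamines, differed by -0.71 at 6 h and 2.13 at 24 h, and Glrx, the disulfide reductase glutaredoxin, by -0.78 at 6 h and 2.44 at 24 h, both with a late rise larger than the early fall. Hagh, which encodes the glyoxalase II that clears methylglyoxal products, differed by -1.11 at 6 h and 1.55 at 24 h. Pon2, an intracellular paraoxonase, was measured by 2 of the 157 probes, which gave -1.41 and -1.30 at 6 h and 0.57 and 0.51 at 24 h. The 14 probes for lipid mediators, oxidase and redox enzymes had median differences of -0.94 at 6 h and 0.61 at 24 h.

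Genes for GTPase regulation and the cytoskeleton included the largest rise at 24 h. Gas7, which encodes an actin-associated protein of the PCH family, was 10.72, 10.56 and 10.47 in the aSCM arrays at 6 h, against 10.98, 11.11 and 11.26 in the LZCM arrays. At 24 h it was 13.45, 13.41 and 13.53 in the aSCM arrays, against 10.88, 10.74 and 10.73 in the LZCM arrays, or 6.43-fold higher. Pstpip1, an adaptor that binds pyrin and PEST-type phosphatases, differed by -0.60 at 6 h and 2.63 at 24 h. Rab3il1, a guanine nucleotide exchange factor for Rab proteins, had the reverse balance, at -2.09 at 6 h and 0.52 at 24 h. Coro1a, a leukocyte actin-binding protein, differed by -0.77 at 6 h and 0.85 at 24 h, and Arhgap9, a GTPase-activating protein, by -1.56 at 6 h and 0.73 at 24 h. Arhgap9 had 2 further probes on the array that did not meet the rule, and both lay near background, at mean signals between 6.54 and 6.97 in every group.

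Lysosomal and endosomal genes were fewer. Slc66a1, the lysosomal exporter of cationic amino acids, was 8.47, 8.26 and 8.32 in the aSCM arrays at 6 h, against 9.89, 9.75 and 9.86 in the LZCM arrays. At 24 h it was 10.14, 10.21 and 10.28 in the aSCM arrays, against 9.22, 9.28 and 9.27 in the LZCM arrays. Atp6v1a, the catalytic subunit of the proton pump that acidifies lysosomes, had 9.99 ± 0.12 in aSCM and 10.71 ± 0.05 in LZCM at 6 h, and 10.60 ± 0.25 in aSCM and 10.00 ± 0.21 in LZCM at 24 h (SD, n = 3). Atp13a2, a lysosomal polyamine exporter whose mutation causes an inherited parkinsonism, differed by -0.63 at 6 h and 0.76 at 24 h. The 10 probes for the lysosome and endosome had median differences of -0.61 at 6 h and 0.87 at 24 h.

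Transport across membranes held the largest early fall. Tmem37, which encodes a calcium channel gamma-like subunit, was 9.35, 9.17 and 9.08 in the aSCM arrays at 6 h, against 12.51, 12.62 and 12.51 in the LZCM arrays. At 24 h Tmem37 was 13.49, 13.49 and 13.52 in the aSCM arrays, against 12.55, 12.42 and 12.48 in the LZCM arrays, so a 10.2-fold lower signal in aSCM was followed by a 2.02-fold higher one. Fxyd2, the gamma subunit of the sodium pump, was measured by 2 probes, which gave -0.92 and -0.71 at 6 h and 1.02 and 0.92 at 24 h. Slc43a2, a transporter of large neutral amino acids, differed by -1.41 at 6 h and 0.95 at 24 h, and Slc7a7, which exports cationic amino acids, by -1.30 at 6 h and 0.55 at 24 h.

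Metabolic enzymes included Pygl, which breaks down glycogen, at -0.98 at 6 h and 1.19 at 24 h, and Pgm1, which converts its product to glucose 6-phosphate, at -0.52 at 6 h and 0.65 at 24 h. Galt and Galm, enzymes of galactose breakdown, differed by -0.70 at 6 h and 0.82 at 24 h and by -1.31 at 6 h and 0.69 at 24 h. Kmo, the kynurenine hydroxylase, differed by -0.52 at 6 h and 1.51 at 24 h, and Bdh1, which interconverts ketone bodies, by -0.70 at 6 h and 0.63 at 24 h. Among genes for protein folding, processing and the nucleus, Tmtc4, an O-mannosyltransferase, differed by -0.98 at 6 h and 0.96 at 24 h, Sel1l, part of the machinery that degrades misfolded proteins of the endoplasmic reticulum, by -0.58 at 6 h and 0.87 at 24 h, and Pou2f2, which encodes the transcription factor Oct-2, by -0.74 at 6 h and 0.76 at 24 h. Pou2f2 was above background on 10 of 12 arrays. For 12 more genes no role is given, Eva1b with -1.01 at 6 h and 0.98 at 24 h among them. The roles were assigned from general knowledge after the values were seen, and no role was tested against another.

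**Figure D3:**
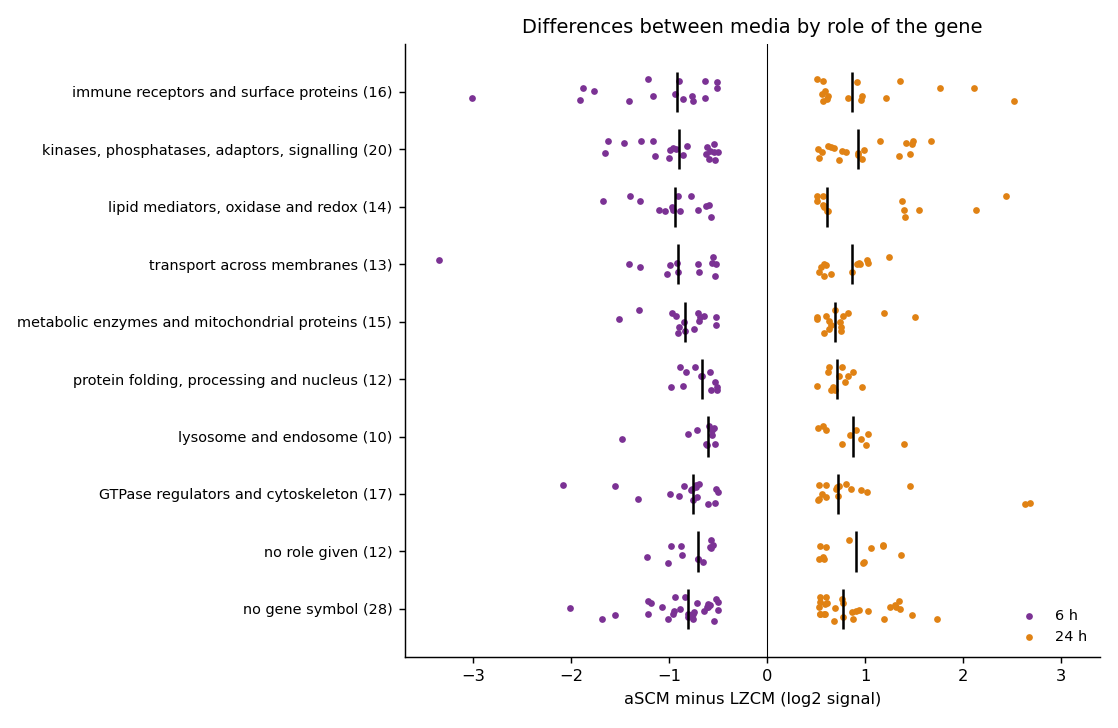
Each of the 157 probes is drawn at its difference aSCM minus LZCM (log2 signal) at 6 h (purple) and at 24 h (orange), in rows by the role of the gene, with the number of probes in brackets. Black bars are medians. The row medians lie between -0.94 and -0.61 at 6 h and between 0.61 and 0.92 at 24 h, and the gap around 0 is set by the rule.

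The rule fixes the difference between media at each time, and with it the amount by which that difference changed, but not whether the signal moved in aSCM, in LZCM or in both. Signals in aSCM were higher at 24 h than at 6 h for all 157 probes, by a median of 1.30. Signals in LZCM were lower at 24 h than at 6 h for 138 probes, with a median change of -0.35, and they were lower by at least 0.5 for 55 probes. The change in aSCM was the larger of the 2 for 140 probes. Over the 4 groups, 24 h aSCM was the highest for 136 probes and 6 h LZCM for the other 21, and 6 h aSCM was the lowest for 134 probes and 24 h LZCM for the other 23. These counts are tied to the rule in part and are descriptions. Over all 13003 tested probes, signals were higher at 24 h in aSCM for 6902 and lower at 24 h in LZCM for 6761. In LZCM they were also lower for 651 of the 800 probes with a rise of at least 0.5 only at 24 h. The same held for 621 of the 1095 probes with a fall of at least 0.5 only at 6 h.

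The change over time averaged over both media is orthogonal to both differences between media in this balanced design, and it was tested for every probe with limma and Benjamini-Hochberg adjustment over 13003 probes. Of the 157 probes, 130 were called higher at 24 h, where 30.7% of all tested probes were, 8 were called lower, where 26.0% were, and 19 were not called. Calls in either direction were made for 56.6% of all tested probes. As shares of the 157 these are 82.8% and 5.1%. All 157 signals rose over time in aSCM, so the average was positive wherever the change in aSCM was the larger, as for 140 probes. A call of higher therefore restates that the change in aSCM was the larger, and does not show a rise in LZCM. The median time effect was 0.52, against 0.02 over all tested probes. Of the 1095 probes that fell by at least 0.5 at 6 h with a difference under 0.5 in size at 24 h, 73.5% were called higher and 10.1% lower over time, with a median of 0.32. Of the 800 probes that rose by at least 0.5 at 24 h with a difference under 0.5 in size at 6 h, 55% were called higher and 14.6% lower, with a median of 0.17. Of the 98 probes with the opposite reversal, a rise of at least 0.5 at 6 h followed by a fall of at least 0.5 at 24 h, 4.08% were called higher and 80.6% lower. The shares of these sets were not tested against each other.

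Tmem37 had the largest rise over time, by 2.12 ± 0.05 (SE, limma adjusted p = 7.48e-16), and its signal changed by 4.30 in aSCM and -0.06 in LZCM. Naaa rose by 1.35 ± 0.07 (SE, limma adjusted p = 1.56e-11) and Sla by 1.32 ± 0.06 (SE, limma adjusted p = 1.44e-12), again with most of the change in aSCM. Gas7 and Fxyd2 followed at 1.27 and 1.18 (limma adjusted p = 1.79e-12 and 6.85e-13). C3ar1 rose by 0.97 ± 0.05 (SE, limma adjusted p = 7.95e-12), made up of changes of 2.80 in aSCM and -0.85 in LZCM.

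Sema4a had the largest fall over time averaged over both media, by 0.79 ± 0.05 (SE, limma adjusted p = 4.84e-10). Its change was 0.28 in aSCM and -1.86 in LZCM, so its reversal between the media came with a large fall in control medium. The probe ILMN_1364397, which has no gene symbol, had a time effect of -0.78 (limma adjusted p = 3.96e-10). Averaged over both media, Alox12 fell by 0.58, Bdh1 by 0.38 and Shc1 by 0.31 over time (limma adjusted p = 6.86e-08, 2.31e-05 and 6.57e-05). These falls came from LZCM, with changes of -1.18, -1.04 and -1.09, against 0.02, 0.29 and 0.46 in aSCM. Spsb1, Ptprc and Tuba4a were the other 3 called lower. For Adcy7 the changes were nearly equal and opposite, 0.90 in aSCM and -1.07 in LZCM, and its average of -0.08 was not called (limma adjusted p = 0.271). Fcgr1a, Ncf1, Atp6v1a and Mrgprx3 were also among the 19 that were not called (limma adjusted p = 0.359, 0.272, 0.567 and 0.223). On average over both media, Tlr4, Mertk and Casp1 rose by 0.46, 0.83 and 0.25 (limma adjusted p = 9.98e-08, 4.21e-11 and 0.00056). Their changes were 1.32, 1.58 and 1.02 in aSCM and -0.40, 0.08 and -0.52 in LZCM. The call for Casp1 was lost without normalization between arrays (0.12, limma adjusted p = 0.424).

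**Figure D4:**
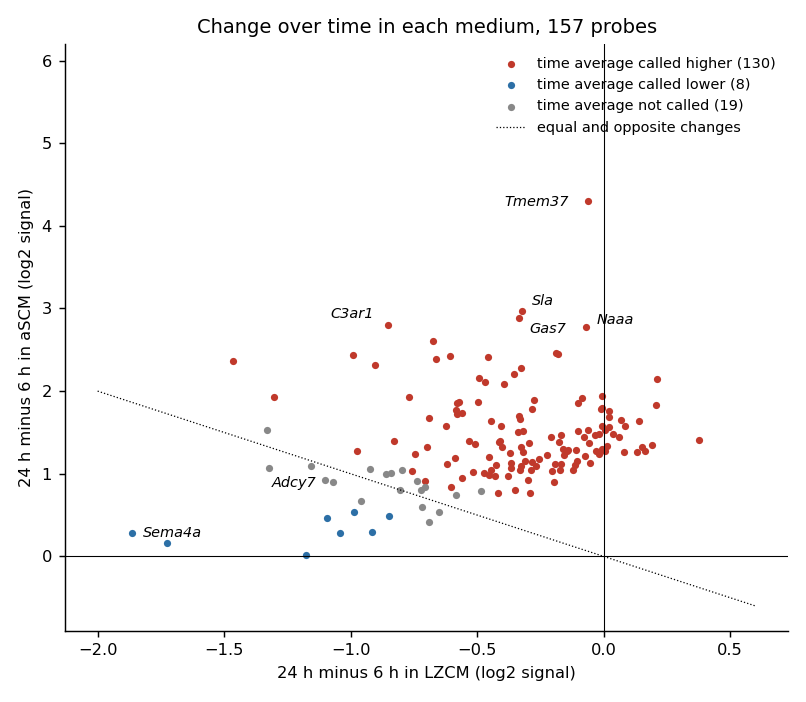
Signal at 24 h minus signal at 6 h in aSCM (vertical axis) and in LZCM (horizontal axis), both in log2 signal, for the 157 probes, coloured by the limma call of the time effect averaged over both media. All points lie above 0 on the vertical axis, 138 lie left of 0 on the horizontal axis, and 130 were called higher, which lie above the dotted line of equal and opposite changes.

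The reversing probes were set against 16 lists of genes for pathways of these cells. Of 13003 tested probes 1.21% showed the reversal, and 13 of the 16 lists held none. The lists had 5 to 42 tested probes each, and at that share most lists of this size hold none. The counts of reversing probes are therefore not a result about the lists. Of 42 tested probes for the Toll-like receptor and NF-kB response, 35 were at least 0.5 higher in aSCM at 6 h and 35 at 24 h, with medians of 2.36 at 6 h and 1.94 at 24 h. Tlr4 was the 1 probe of that list that was at least 0.5 lower at 6 h, and the 1 that reversed. Of 36 probes for the lysosome and phagocytosis, 3 reversed, Atp6v1a, Fcgr1a and Mertk, and the list's medians were -0.38 at 6 h and -0.13 at 24 h. Of 25 probes for apoptosis and survival, Casp1 reversed. None of 23 probes for homeostatic microglia did, and their medians were -0.35 at 6 h and -0.61 at 24 h. The medians over all tested probes were -0.01 at 6 h and 0.03 at 24 h. Of the 13003 tested probes, 1567 were at least 0.5 higher in aSCM at 6 h and 1518 at 24 h. At least 0.5 lower were 1909 at 6 h and 1773 at 24 h. The interferon response (27 probes), antigen presentation (19) and glycolysis (18) held none either, nor did the cell cycle (42), of whose probes 21 were at least 0.5 lower in aSCM at 6 h and 33 at 24 h.

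Marker lists were used to check the labelled cell type. Of 7 microglial markers with a probe, Aif1, Itgam, P2ry12, Ptprc, Tmem119 and Trem2 were above background on all 12 arrays. Markers of other brain cells were present too: 4 of 6 astrocyte probes, 5 of 8 oligodendrocyte lineage probes and 4 of 6 neuronal probes were above background on all 12 arrays, as were 1 of 5 fibroblast probes (Col1a2) and 1 of 3 endothelial probes (Cldn5). The astrocyte marker Aqp4, the fibroblast markers Col3a1 and Lum, the endothelial marker Cdh5 and the lymphocyte marker Cd3d were on none. These lists moved with the groups. The mean log2 signal of the astrocyte list was 8.70 to 8.71 in aSCM and 9.07 to 9.12 in LZCM at 6 h, and 8.43 to 8.52 in aSCM and 9.78 to 9.89 in LZCM at 24 h. The oligodendrocyte lineage list was at 8.29 to 8.42 in aSCM and 8.81 to 8.91 in LZCM at 6 h, and at 8.13 to 8.29 in aSCM and 9.51 to 9.72 in LZCM at 24 h. The neuronal list was at 7.87 to 7.93 in aSCM and 7.72 to 7.82 in LZCM at 6 h, and at 7.59 to 7.66 in aSCM and 8.03 to 8.13 in LZCM at 24 h. Members of these lists differed among themselves. For astrocyte markers aSCM minus LZCM ran from -1.76 (Slc1a3) to 0.21 (Gja1) at 6 h and from -3.02 (Gfap) to 0.12 (Slc1a2) at 24 h. For oligodendrocyte lineage markers it ran from -1.56 (Sox10) to 0.03 (Mog) at 6 h. At 24 h it ran from -2.73 (Olig1) to -0.27 (Mog), so all of them were lower in aSCM. Nefl differed by 0.96 at 6 h and 0.70 at 24 h. The other neuronal markers ran from -0.30 (Tubb3) to 0.11 (Snap25) at 6 h and from -1.16 (Tubb3) to 0.03 (Rbfox3) at 24 h. The microglial list was at 10.17 to 10.27 in aSCM and 11.16 to 11.20 in LZCM at 6 h, and at 10.26 to 10.38 in aSCM and 10.66 to 10.67 in LZCM at 24 h. Its members did not move alike. For P2ry12 aSCM minus LZCM was -2.87 at 6 h and -2.25 at 24 h. At the same times it was -2.01 and -0.16 for Cx3cr1, -0.74 and -2.24 for Trem2 and 0.21 and 1.69 for Itgam. Ptprc, 1 of the 157, changed sign. Tmem119 differed by -0.52 at 6 h. Its difference of 0.14 at 24 h was close to the spread between arrays (SD 0.05 in aSCM and 0.12 in LZCM). The fibroblast list was at 7.12 to 7.26 in aSCM and 7.22 to 7.31 in LZCM at 6 h, and at 6.96 to 7.05 in aSCM and 7.57 to 7.61 in LZCM at 24 h, when Col1a2 averaged 8.07 in aSCM and 10.93 in LZCM. The part of these shifts in the reversal was not tested.

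**Figure D5:**
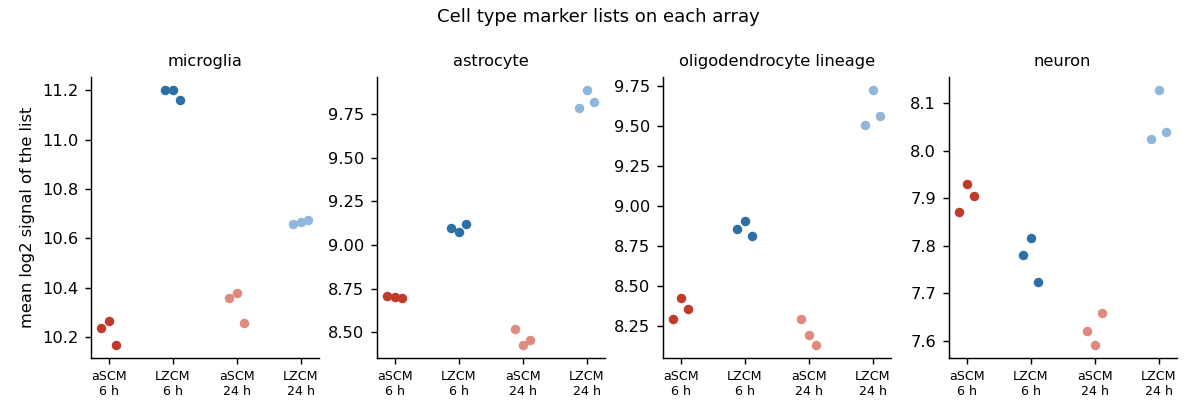
Mean log2 signal of 4 marker lists on each array (points), by medium and time. Vertical axes differ between panels and do not start at 0. The means of the astrocyte and oligodendrocyte lineage lists are lower in aSCM than in LZCM at both times, with the wider gap at 24 h. The mean of the microglial list, whose members went both ways, is lower in aSCM at both times, with the wider gap at 6 h. Members of the other lists did not all move alike either, except that every oligodendrocyte lineage marker was lower in aSCM at 24 h.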

How the data were processed

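Gene expression was measured by 1-colour Illumina bead arrays in 12 samples. For each array the authors deposited a log2 signal of 22523 probes, not normalized according to the table's name. Base 2 is taken from the range of these signals, which reach 15.93. A second deposited table holds log2 values that the authors had normalized between arrays; it differed from the values used here by a median of 0.0468 (correlation at least 0.9998) and served as an alternative. R 2.9.1 is named in the submitters' processing notes. Scanner software: not given in the sources used here.

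The deposited log2 signals were quantile normalized over the 12 arrays without background correction (limma 3.58.1 in R 4.3.3), which is the scale that chose the probes and which understates differences of dim probes. Background was modelled per array as a normal curve around its most frequent signal, and a one-sided p under 0.05 counted as above it, which 11432 to 12000 probes were. The 13003 probes above background on at least 3 arrays were tested and 9520 were set aside. The 4 group means were fitted to all 12 arrays together in limma (eBayes), with 8 residual and 9.71 prior degrees of freedom, and a probe was called at an adjusted p under 0.05. Precision is limited by the 12 arrays. The pipeline was tested on simulated data.

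The annotation gave 13793 probes 1 symbol and 8730 none; 13757 matched RefSeq and 4 symbols were updated. Probes and gene lists were chosen with earlier results of these data known. Named genes are the 20 with the largest smaller difference, members of the lists, the 5 largest rises and falls over time and those at the thresholds; others, and the roles, were chosen after their values were seen. Alternatives covered background correction, normalization, filter, variance model, replicate block and each array left out.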

Additional observations from a re-analysis of the deposited data

How the results depend on the processing

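The counts of reversing probes called over time kept within 1.5 times of their value under all 10 alternative settings, from 101 called higher without normalization to 131 with the replicate block, and from 8 to 10 called lower. Without each array in turn they ran from 125 to 132 higher and from 8 to 9 lower. Of all tested probes 30.7% were called higher in the main setting, 10.9% without normalization, 26.7% with cyclic loess and 31.2% with the replicate block. Without each array in turn that share ran from 29.1% to 30.5%. The number of probes meeting the rule ran from 147 to 169 without each array in turn. It was 237 after normexp with an offset of 16, which includes all 157 and stretches the differences of dim probes, and it ran from 122 with cyclic loess to 178 without normalization, where 116 and 114 of the 157 still met it. All 157 kept both signs under each setting. The replicate numbers were not shown to pair the arrays: deviations of arrays with the same number correlated between -0.112 and 0.283 over 18 pairs, with a median of 0.0611. With the replicate block 131 were called higher and 9 lower, against 130 and 8. Scaling to the 75th percentile moved the median difference of all probes to 0.12 at 6 h and 0.14 at 24 h, against -0.01 and 0.03, and 131 of the 157 then met the rule. Without normalization 30.1% of all calls over time were higher, against 54.2%, while for the 157 probes the share was 92.7% against 94.2%. Among named genes the time calls ended only for Casp1 without normalization and for ILMN_1362050 (0.11, limma adjusted p = 0.029) under 4 settings and without each of 5 arrays; the cause was not tested. Depth is not recorded for bead arrays, and 11 of the 157 probes were above background on fewer than 12 arrays.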

Other observations

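Partners of the reversing genes, picked after the values were seen, did not all share the reversal. Of the phagocyte NADPH oxidase, whose Cybb and Ncf1 reversed, the membrane partner Cyba differed between aSCM and LZCM by -0.12 at 6 h and 0.37 at 24 h, the cytosolic subunit Ncf4 by 0.02 at 6 h and 3.54 at 24 h and the GTPase Rac2 by 0.23 at 6 h and 1.43 at 24 h. Rac2 averaged 15.43 in aSCM at 24 h, also near the highest normalized signal of 15.73. Around Tlr4, the co-receptor Cd14 differed by 1.08 at 6 h and 2.84 at 24 h and the adaptor Myd88 by -0.20 at 6 h and 1.06 at 24 h, with Cd14 at 15.32 at 6 h in aSCM, likewise near the top. Around Lta4h and Pla2g4a, the 5-lipoxygenase activating protein Alox5ap differed by -0.53 at 6 h and -0.44 at 24 h and the cyclooxygenase Ptgs2 by 5.86 at 6 h and 5.54 at 24 h. Alox5, the enzyme that makes the substrate of Lta4h, was at 6.93 to 7.01 in every group, near background, and above it on 8 of 12 arrays.

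Around Casp1, the inflammasome sensor Nlrp3 differed by 2.91 at 6 h and 1.21 at 24 h, the adaptor Pycard by -2.35 at 6 h and 0.16 at 24 h and the substrate Il1b by 2.43 at 6 h and 4.26 at 24 h. Il1b averaged 15.52 at 6 h and 15.48 at 24 h in aSCM, near the highest normalized signal of 15.73, so its differences may be understated. Around Ptpn6, Btk and Sla, the kinase Syk differed by -0.36 at 6 h and 0.25 at 24 h, the kinase Lyn by 0.47 at 6 h and 1.96 at 24 h and the lipid phosphatase Inpp5d by -2.21 at 6 h and -0.01 at 24 h. Of the Fc receptors other than Fcgr1a, the inhibitory Fcgr2b differed by 1.93 at 6 h and 1.38 at 24 h and the activating Fcgr3a by -0.43 at 6 h and 0.55 at 24 h. The shared signalling chain Fcer1g was at 15.44 to 15.54 in all 4 groups, close to the highest normalized signal of 15.73, so no difference is given for it.

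The 28 reversing probes without a gene symbol had medians of -0.81 at 6 h and 0.77 at 24 h, against -0.78 and 0.76 over all 157. Over time 22 of the 28 were called higher, 1 lower and 5 were not called. The share called higher was 82.8% over all 157 and 30.7% over all tested probes. Among the 28, ILMN_1353169 differed by -1.69 at 6 h and 1.73 at 24 h and ILMN_1370700 by -1.56 at 6 h and 1.47 at 24 h, which puts both among the 4 largest reversals of the 157.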
